A study of Arabidopsis thaliana with 24 samples.

Results

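Seedlings of the line labelled pif7-1 were compared with Col-0 wild type (WT) after both had been primed and had then met shade a second time. The comparison rests on 4 libraries of the 24 in the series, 2 for each genotype, chosen by their labels. RNA came from whole Arabidopsis thaliana seedlings. All 4 libraries shared one history: seedlings aged 4 days had 8 h of priming shade, 40 h of recovery in white light and then, as the trigger, 1 h of shade with red to far-red light at about 0.5. Compared beside them were primed seedlings of both genotypes that had no triggering shade (white light, 2 libraries each) and primed, shaded seedlings of the line labelled ref6-1 (2 libraries), a line named for the histone demethylase gene REF6. The labels do not describe the insertion or lesion in either mutant, nor whether the 2 libraries of a group came from separate cultures. The p-values therefore reflect only how far libraries scatter within their groups, pooled over all 24 libraries, and that scatter may be technical.

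PIF7 is a bHLH transcription factor that is held back by phytochrome B in white light and freed when a leaf canopy lowers the red to far-red ratio. It binds G-boxes and PIF-binding E-boxes in front of target genes. Among the best known of these are the YUCCA genes, which encode the flavin monooxygenases of the last step of auxin synthesis, and auxin made in the cotyledons then drives hypocotyl growth.

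Values were TPM, which keep no read number, so the depth behind each value is unknown. Between 18965 and 19243 genes reached 1 TPM in each of the 4 libraries. The 2 WT shade libraries correlated with r = 0.985 across log2 values of all tested genes and the 2 pif7-1 shade libraries with r = 0.961, the lowest replicate value of the series, against 0.948 to 0.952 between the genotypes. Summed TPM of plastid genes was 6000.4 and 3105 in the pif7-1 libraries and 1887 and 2085 in the WT libraries, and the part of this difference in the results below was not tested beyond a refit on nuclear genes, which called 4065 genes. Fold changes are pif7-1 over WT of log2(TPM + 1), a scale on which the changes of genes with low values appear too small. Genes were called with limma at a Benjamini-Hochberg adjusted p under 0.05.

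PIF7 (AT5G61270) itself stood at 28.4 and 29.5 TPM in the WT libraries and at 1.09 and 2.55 TPM in the pif7-1 libraries. Its log2 fold change was -3.46 (SE 0.22, adjusted p = 1.42e-07). In white light it was -4.28. PIF7 overlaps another annotated gene and strand was not given for the libraries, so a residual count cannot be assigned to it with certainty. Of the 7 PIF family genes tested, PIF8 was also lower, with 67.6 and 69.5 TPM in WT against 36.5 and 35.6 TPM in pif7-1 (-0.91, SE 0.14). The other 5 were not called.

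Across all 21473 tested genes, 4063 differed between pif7-1 and WT in primed shade, which is 18.9% of those tested. Of these, 3004 (14.0% of tested genes) were lower in pif7-1 and 1059 (4.93%) were higher. Most differences were modest: 475 of the lower and 255 of the higher genes changed by more than 2-fold, and the median log2 fold change of all tested genes was -0.09. The 2 WT and 2 pif7-1 libraries did not overlap in 56.5% of tested genes. The excess of lower genes depended on scaling, since quantile normalization gave 2673 lower and 2107 higher genes. The counts rest on a spread estimated from all 24 libraries. With the 4 compared libraries alone, 1 gene passed, and without WT replicate 1 or WT replicate 2 the count was 1884 or 1386.

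**Figure D1:**
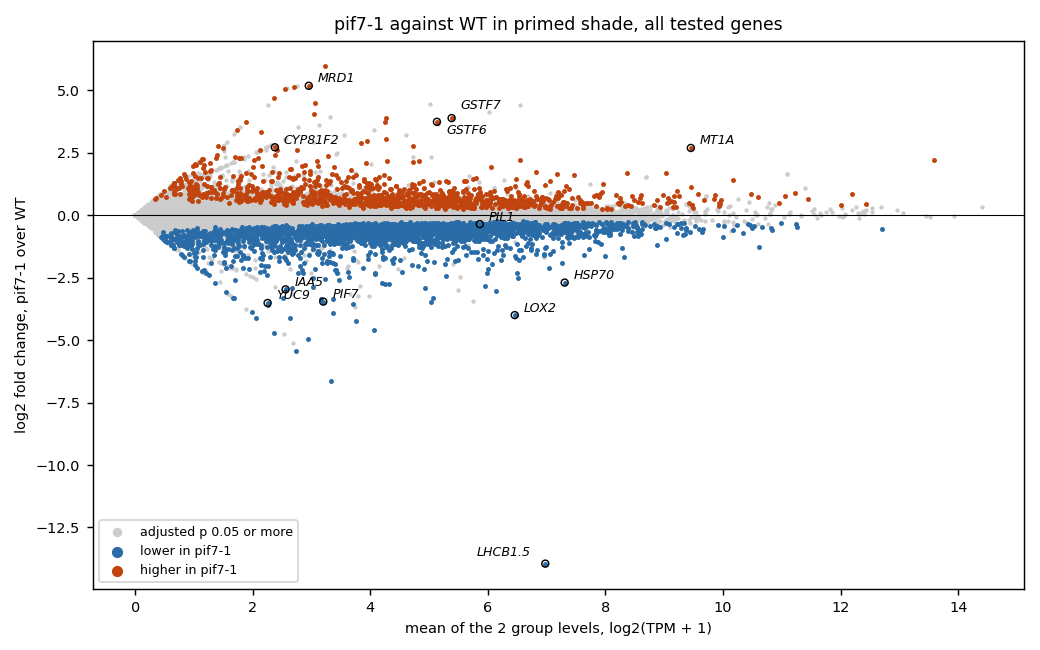
Log2 fold change of pif7-1 over WT in primed shade (vertical) against the mean of the 2 group levels, as log2(TPM + 1), for 21473 tested genes. Blue genes (3004) were lower and red genes (1059) higher in pif7-1 at adjusted p under 0.05, grey genes were not called, and the ringed genes are named in the text.

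The first group examined was the early shade transcription factors and markers, genes that rise within an hour of a low red to far-red ratio. Of 18 tested, 5 were lower in pif7-1, 1 was higher and 12 were not called. The genes most often used as shade markers were among those not called. PIL1 (AT2G46970), a bHLH gene, had 64.6 and 64.9 TPM in WT and 47.9 and 53.0 TPM in pif7-1 (-0.36, SE 0.16, adjusted p = 0.122). HFR1, an atypical bHLH gene that restrains the shade response, had 323.6 and 334.7 TPM in WT against 273.5 and 358.6 TPM in pif7-1, so that its libraries overlapped. ATHB2, an HD-ZIP gene, had 148 and 151.4 TPM against 114.9 and 125.1 TPM (-0.32, adjusted p = 0.209).

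These markers still responded to the trigger in the mutant. From primed white light to primed shade, PIL1 rose by 4.34 in WT and by 3.21 in pif7-1 on the log2 scale, and the difference of -1.13 between these rises passed the test (adjusted p = 0.0044). Of the 18 genes, 14 rose with shade in WT and 10 in pif7-1, against 14.5% and 1.59% of all tested genes. Over all tested genes 23.4% changed with shade in WT, 8.94% downward, and 5.01% changed in pif7-1, 3.42% downward. PIL1 was higher in primed pif7-1 seedlings in white light, at 4.27 and 4.87 TPM against 2.06 and 2.46 TPM in WT (0.77, adjusted p = 0.00847). That call was lost without WT replicate 1 or pif7-1 replicate 2 in white light.

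The members that were lower in shade included other HD-ZIP and bHLH genes. CKX5 (AT1G75450), a cytokinin oxidase gene, had 24.96 and 26.5 TPM in WT and 4.73 and 4.46 TPM in pif7-1 (-2.26, SE 0.21, adjusted p = 6.52e-06). SOT15, a sulfotransferase gene whose product inactivates a hydroxylated jasmonate, had 55.5 and 55.0 TPM against 16.1 and 9.87 TPM (-2.04, SE 0.33). HAT2, an HD-ZIP gene that auxin induces, had 122.2 and 110.5 TPM against 38.6 and 40.9 TPM (-1.53, SE 0.15). The growth-promoting bHLH genes PRE1 (-1.05) and BEE1 (-1.0) were lower as well, and HAT1, close kin of HAT2, was higher (0.58, adjusted p = 0.0277). HAT2 and CKX5 rose with shade in WT, by 1.70 and 2.59, while their changes of 0.51 and 0.63 in pif7-1 did not pass (adjusted p = 0.0593 and 0.085). The difference between the lights passed for both, at -1.19 for HAT2 and -1.97 for CKX5. The count of lower members was 5 without any single one of the 4 libraries. The higher count of 1 became 0 without WT replicate 1, WT replicate 2 or pif7-1 replicate 2, and 3 without pif7-1 replicate 1.

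Of 10 auxin synthesis genes tested, 4 were lower and 1 was higher. All 4 lower genes were YUCCA genes, and the 3 other YUCCA genes tested were not called. YUC9 (AT1G04180) had 16.5 and 13.7 TPM in WT and 0.52 and 0.30 TPM in pif7-1 (-3.51, SE 0.32, adjusted p = 7.39e-06). YUC8 (AT4G28720) had 38.0 and 37.0 TPM against 9.34 and 10.7 TPM (-1.81, SE 0.22, adjusted p = 7.18e-05). YUC2 (AT4G13260) had 19.3 and 19.8 TPM against 3.41 and 5.34 TPM (-1.96, SE 0.20, adjusted p = 1.74e-05). In white light none of these 3 differed between the genotypes at the threshold, with changes of -0.35, -0.17 and -0.31, and the difference between the lights passed for each, at -3.16, -1.64 and -1.65. YUC8 rose with shade within pif7-1 by 1.00 (adjusted p = 0.0192), whereas YUC9 and YUC2 changed by -0.41 and 0.12 there without passing. YUC3, at no more than 2.33 TPM, was lower as well (-1.05).

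TAA1 (AT1G70560), the aminotransferase that makes the substrate of the YUCCA enzymes, moved the opposite way. It had 2.59 and 3.27 TPM in WT and 10.2 and 11.6 TPM in pif7-1 (1.60, SE 0.13, adjusted p = 1.52e-06). TAA1 was also higher in pif7-1 in white light (0.81). Its fall with shade was larger in WT (-1.25) than in pif7-1 (-0.46), with a tested difference of 0.79. The list counts of 4 lower and 1 higher stayed the same without any single library.

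The 300 bases in front of the annotated starts are shown for the 4 called genes of the early shade and auxin lists with the largest falls (YUC9, IAA5, GH3.3 and CKX5) and, added with the values known, for the YUC8 and YUC2 genes. They are read from the RefSeq TAIR10.1 assembly, 5′ to 3′ toward the gene, and overlap no other annotated gene. Capitals mark the PIF-binding E-box (CACATG, or CATGTG when read on the other strand). The G-box (CACGTG) was searched on both strands too and occurs in none of them.
YUC9, chr1:1104193-1104492, plus strand: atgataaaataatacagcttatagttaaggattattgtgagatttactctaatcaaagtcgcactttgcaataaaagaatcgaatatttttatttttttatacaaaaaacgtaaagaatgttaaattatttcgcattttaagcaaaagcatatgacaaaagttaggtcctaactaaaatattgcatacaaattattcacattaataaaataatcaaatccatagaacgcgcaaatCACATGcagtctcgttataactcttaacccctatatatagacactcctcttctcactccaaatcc
YUC8, chr4:14192269-14192568, plus strand: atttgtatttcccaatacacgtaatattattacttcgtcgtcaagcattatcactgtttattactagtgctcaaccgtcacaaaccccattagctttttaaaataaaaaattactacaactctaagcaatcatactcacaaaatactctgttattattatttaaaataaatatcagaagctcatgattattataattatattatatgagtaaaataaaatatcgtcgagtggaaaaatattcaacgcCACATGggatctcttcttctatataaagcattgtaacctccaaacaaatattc
YUC2, chr4:7724071-7724370, minus strand: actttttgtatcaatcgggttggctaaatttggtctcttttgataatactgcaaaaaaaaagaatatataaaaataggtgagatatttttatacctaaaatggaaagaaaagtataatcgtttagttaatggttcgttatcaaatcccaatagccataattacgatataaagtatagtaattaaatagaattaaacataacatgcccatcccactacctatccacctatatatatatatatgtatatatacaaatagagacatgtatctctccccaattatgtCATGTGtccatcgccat
GH3.3, chr2:9866563-9866862, minus strand: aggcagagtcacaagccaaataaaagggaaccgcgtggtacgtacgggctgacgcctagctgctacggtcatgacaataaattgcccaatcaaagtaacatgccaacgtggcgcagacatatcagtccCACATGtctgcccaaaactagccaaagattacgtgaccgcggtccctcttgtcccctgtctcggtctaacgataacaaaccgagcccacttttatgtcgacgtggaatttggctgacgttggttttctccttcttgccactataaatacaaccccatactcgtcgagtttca
IAA5, chr1:5366498-5366797, minus strand: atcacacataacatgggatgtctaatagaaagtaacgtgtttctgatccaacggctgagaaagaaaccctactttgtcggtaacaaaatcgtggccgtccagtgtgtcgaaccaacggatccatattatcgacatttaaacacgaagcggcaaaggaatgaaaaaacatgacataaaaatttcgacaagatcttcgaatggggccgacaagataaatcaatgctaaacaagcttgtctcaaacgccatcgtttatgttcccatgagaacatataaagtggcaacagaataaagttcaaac
CKX5, chr1:28318376-28318675, minus strand: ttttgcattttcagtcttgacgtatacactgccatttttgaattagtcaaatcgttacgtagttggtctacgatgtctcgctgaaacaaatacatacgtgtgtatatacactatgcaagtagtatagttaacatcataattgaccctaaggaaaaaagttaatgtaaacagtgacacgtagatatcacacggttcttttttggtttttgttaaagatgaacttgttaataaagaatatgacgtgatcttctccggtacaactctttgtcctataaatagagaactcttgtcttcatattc

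The PIF-binding E-box lies with its first base 65 bases before the start of YUC9, 53 before that of YUC8, 17 before that of YUC2 and 172 before that of GH3.3, while these letters are not in the windows of IAA5 and CKX5. Of the 4 lower YUCCA genes, 3 held one within 300 bases, as did 1 of the 6 other tested genes of the auxin synthesis list. YUC3, whose window is not shown, held none. The split went the other way in the Aux/IAA list (2 of 11 lower genes against 5 of 16 others) and the GH3 list (1 of 3 against 2 of 5). It did so too for early shade genes (1 of 5 against 3 of 13), jasmonate (3 of 14 against 2 of 5) and heat shock (0 of 9 against 2 of 4). Over all 27443 protein-coding genes with such a window, 13.1% held the PIF-binding E-box, 7.09% the G-box and 18.9% either. Among the genes lower in pif7-1 the shares were 12.7%, 9.78% and 20.9%, and among tested genes that were not called they were 13.2%, 7.94% and 19.8%. A match describes only these letters in this window.

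Genes that respond to auxin were mostly lower where they were called. Of 27 Aux/IAA genes tested, which encode repressors that auxin induces and then degrades, 11 were lower and none was higher, with a list median of -0.52 against -0.09 for all tested genes. IAA29 (AT4G32280) had 143 and 123.4 TPM in WT and 29.0 and 29.6 TPM in pif7-1 (-2.14, SE 0.23, adjusted p = 2.27e-05). IAA19 (AT3G15540) had 163.5 and 142.2 TPM against 52.8 and 62.8 TPM (-1.39, SE 0.16). IAA5, which overlaps another annotated gene, had 16.5 and 14.3 TPM against 1.41 and 0.82 TPM (-2.97, SE 0.31). All 3 differed less in white light (tested differences of -1.52, -1.49 and -1.98). IAA19 and IAA29 rose with shade in pif7-1 too, by 2.18 and 2.11, against 3.66 and 3.64 in WT. The smaller falls were less stable: the count was 7 without WT replicate 1 and 6 without WT replicate 2.

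The GH3 genes encode enzymes that conjugate auxin to amino acids, and 3 of 8 were lower. GH3.6 had 92.5 and 79.3 TPM in WT against 32.0 and 29.3 TPM in pif7-1 (-1.45, SE 0.19). GH3.3 had 36.3 and 33.4 TPM against 10.9 and 3.14 TPM (-2.35, SE 0.48). GH3.5 was lower by a log2 fold change of -1.03. Of 13 auxin transport genes, 5 were lower and 1 was higher. The efflux carrier genes PIN3 (145.5 and 140.2 TPM against 74.7 and 90.5 TPM, -0.79) and PIN4 (-0.78) were lower, whereas the influx carrier gene LAX1 had 27.4 and 28.5 TPM in WT and 56.1 and 54.1 TPM in pif7-1 (0.95, SE 0.11). LAX1 was higher in white light too (1.08), and the difference between the lights was -0.13 (adjusted p = 0.628). Without WT replicate 1, WT replicate 2 or pif7-1 replicate 1, 3, 2 and 3 transport genes were lower.

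The SAUR genes, a large family of early auxin responders that promote cell expansion, did not follow that direction as a group. Of 67 tested, 5 were lower and 4 were higher, below the background share on the lower side and close to it on the higher, and the list median of -0.04 became 0.07 under quantile normalization. SAUR57 was higher, with 10.7 and 11.5 TPM in WT against 22.9 and 33.1 TPM in pif7-1 (1.24), and SAUR9 was lower (-1.18). With shade, 25 SAUR genes rose and 5 fell in WT, and 21 rose and 1 fell in pif7-1. Over all tested genes 14.5% rose and 8.94% fell in WT, and 1.59% rose and 3.42% fell in pif7-1. The count of lower SAUR genes was 1 without either WT replicate and 2 without pif7-1 replicate 1, and the count of higher ones was 2 without WT replicate 1, WT replicate 2 or pif7-1 replicate 2.

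**Figure D2:**
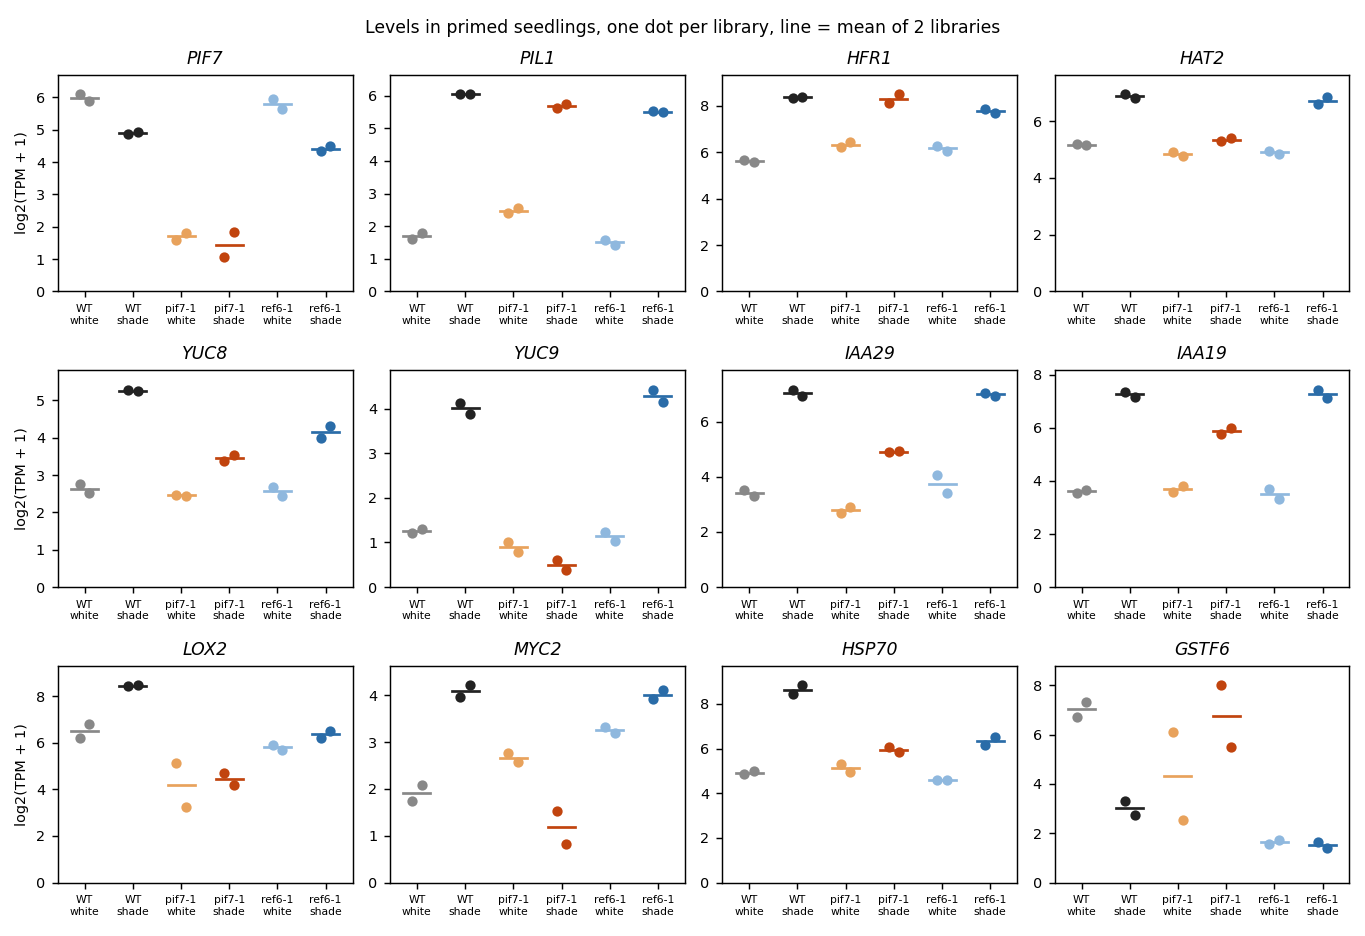
Levels of 12 genes as log2(TPM + 1) in primed seedlings of WT, pif7-1 and ref6-1 in white light and after 1 h of shade. Each dot is 1 library and each line the mean of 2. PIL1 and HFR1 rise with shade in pif7-1 nearly to the WT level, HAT2, YUC8, YUC9, IAA29 and IAA19 stay below it, and HSP70 in shaded ref6-1 lies near pif7-1 while MYC2 lies near WT.

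Other growth hormones changed in part. Of 18 gibberellin genes, 5 were lower and 2 were higher. GA20OX1 (AT4G25420), a rate-limiting enzyme gene of gibberellin synthesis, had 14.1 and 12.1 TPM in WT and 2.2 and 2.79 TPM in pif7-1 (-2.01, SE 0.21, adjusted p = 1.8e-05). GASA6, a gibberellin-responsive gene that overlaps another gene, had 205.3 and 160.9 TPM against 571.2 and 617.1 TPM (1.70, SE 0.15, adjusted p = 3.94e-06). GASA6 rose with shade in pif7-1 (1.19) and fell in WT (-0.72), a tested difference of 1.91. The lower count was 2 without WT replicate 1 and 3 without any other of the 4 libraries.

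Of 13 brassinosteroid genes, 4 were lower and 3 were higher. BAS1, which inactivates brassinosteroids, had 31.4 and 30.2 TPM in WT and 13.6 and 15.5 TPM in pif7-1 (-1.04). BR6OX1, which encodes a late enzyme of synthesis, was at 1.08 TPM in both WT libraries and at 3.67 and 5.07 TPM in pif7-1 (1.36). Leaving out single libraries gave 1 to 4 lower and 1 to 2 higher genes, with 1 lower gene without WT replicate 2 or pif7-1 replicate 1 and 1 higher gene without WT replicate 1. Of 8 ethylene synthesis genes, the ACC synthase genes ACS8 (15.8 and 14.9 TPM against 3.97 and 4.00 TPM, -1.71), ACS6 (-1.09) and ACS4 (-1.15) were lower and none was higher. Of 11 cytokinin genes, CKX5 and CKX6 (-0.83) were lower, both cytokinin oxidases. That called share of 18.18% was close to the 18.9% of all tested genes. Without WT replicate 1, ACS4 and CKX6 lost their calls.

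Cell wall genes did not share one direction. Of 29 XTH genes, which remodel xyloglucan, 6 were higher and 3 were lower. XTH7 had 220.2 and 217 TPM in WT against 409.5 and 355.1 TPM in pif7-1 (0.80), and XTH27 had 108.3 and 116.7 TPM against 178 and 222 TPM (0.82). XTH14 was lower (-1.18). Of 17 expansin genes, 2 were lower (EXPA18 and EXPA14, both below 4 TPM) and 1 was higher (EXPA11, 0.73). The called share of expansin genes, 17.65%, was close to the 18.9% of all tested genes. Without WT replicate 1, WT replicate 2 or pif7-1 replicate 1, 1, 2 and 3 XTH genes were higher, and without WT replicate 1 or 2, 1 and 0 were lower. Lower expansin genes numbered 1, 0, 4 and 0 without WT replicate 1, WT replicate 2, pif7-1 replicate 1 and pif7-1 replicate 2, and EXPA11 lost its call in all of these but the fit without pif7-1 replicate 1.

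The 36 lists were chosen with earlier results of these data known. Among them the jasmonate list held the largest share of lower genes with all libraries in the fit. That rank was lost without WT replicate 1, pif7-1 replicate 1 or pif7-1 replicate 2. Jasmonate is a lipid-derived hormone of wounding and defence, made in the plastid by lipoxygenase, AOS and AOC and signalling through the transcription factor MYC2 and its JAZ repressors. Of 19 genes tested, 14 were lower and none was higher, with a median of -1.0. LOX2 (AT3G45140), a plastid lipoxygenase, had 344.3 and 351.2 TPM in WT and 24.8 and 17.5 TPM in pif7-1 (-4.00, SE 0.43, adjusted p = 2.22e-05). AOC2 had 264.4 and 282.1 TPM against 65.6 and 58.6 TPM (-2.12, SE 0.15). AOS had 223.4 and 229.6 TPM against 79.7 and 73.7 TPM (-1.55, SE 0.12). OPR3 (-1.22), the reductase of the next step, was lower as well.

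On the signalling side, MYC2 (AT1G32640), which overlaps another gene, had 14.6 and 17.58 TPM in WT and 1.89 and 0.78 TPM in pif7-1 (-2.91, SE 0.23, adjusted p = 1.62e-06). JAZ9 had 109.1 and 120 TPM against 43.5 and 43.3 TPM (-1.38, SE 0.12). The storage protein genes VSP2 (84.5 and 67.5 TPM against 18.0 and 4.3 TPM, -2.93) and VSP1 (-2.21), long used as jasmonate reporters, were lower too. In WT, 11 of the 19 genes rose with shade, and in pif7-1 1 rose and 2 fell. Over all tested genes 14.5% rose in WT, and 1.59% rose and 3.42% fell in pif7-1. MYC2 moved in opposite directions, up by 2.17 in WT and down by 1.48 in pif7-1, with a tested difference of -3.66 (adjusted p = 2.75e-05).

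LOX2 was also lower in primed white light, at 73.0 and 110.3 TPM in WT against 33.8 and 8.34 TPM in pif7-1 (-2.33, adjusted p = 0.0048). Its difference between the lights did not pass (-1.67, adjusted p = 0.0722). In white light 3 of the 19 genes were lower, and the difference between the lights passed for 7. Between 10 and 12 jasmonate genes were lower in shade when any of the 4 libraries was left out. The 3 in white light became 0 without WT replicate 2 or pif7-1 replicate 2, 2 without WT replicate 1 and 5 without pif7-1 replicate 1.

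Heat shock genes formed the other large block of lower genes. They encode chaperones and their transcription factors and respond to misfolded protein. Of 13 tested, 9 were lower and 1 was higher, with a median of -1.48. HSP70 (AT3G12580), a cytosolic chaperone, had 350.5 and 455.4 TPM in WT and 65.9 and 56.0 TPM in pif7-1 (-2.70, SE 0.18, adjusted p = 2.93e-07). HSP90.1 had 53.1 and 76.5 TPM against 18.9 and 14.3 TPM (-1.89, SE 0.19). HSP17.8, a small heat shock protein gene, had 19.99 and 33.0 TPM against 3.1 and 3.71 TPM (-2.60, SE 0.24). The HSP17 genes are close copies, so reads may be shared among them. HSFA2, a heat shock transcription factor, had 11.03 and 15.4 TPM against 1.91 and 3.70 TPM (-1.92, SE 0.28).

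In WT 9 of the 13 heat shock genes rose from primed white light to primed shade, and in pif7-1 1 did. Over all tested genes 14.5% rose in WT and 1.59% in pif7-1. HSP70 stood at 27.9 and 30.8 TPM in WT in white light and at 39.2 and 29.9 TPM in pif7-1, where the libraries of the genotypes overlapped. The difference between the lights passed for 5 genes, among them HSP70 (-2.92), HSP90.1 (-2.07) and HSP101 (-1.45). The count of lower genes in shade was 6 to 9 when single libraries were left out, and the 1 higher gene lost its call without WT replicate 1, WT replicate 2 or pif7-1 replicate 2.

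The ref6-1 libraries of the same history and light placed these groups differently. They share the pif7-1 libraries with the comparison above, so the values are given side by side. HSP70 stood at 70.8 and 90.5 TPM in ref6-1, near pif7-1, and pif7-1 over ref6-1 was -0.39 (adjusted p = 0.174). Of the 13 heat shock genes, 2 were lower and 2 were higher in pif7-1 than in ref6-1. MYC2 stood at 14.2 and 16.3 TPM in ref6-1, near WT (-2.84 for pif7-1 over ref6-1), and LOX2 at 72.5 and 89.9 TPM, between WT and pif7-1 (-1.91). Of the 19 jasmonate genes, 10 were lower in pif7-1 than in ref6-1, with 5 to 10 when single libraries were left out (5 without ref6-1 replicate 2). YUC9 had 20.4 and 16.7 TPM in ref6-1 and IAA29 had 132.7 and 122 TPM, both near WT. YUC8, with 14.9 and 18.8 TPM, lay between WT and pif7-1, and GA20OX1, with 3.36 and 3.11 TPM, lay near pif7-1 (-0.28, adjusted p = 0.407). Over all tested genes 12.5% were called between pif7-1 and ref6-1, 8.23% lower (1768 genes) and 4.3% higher (924), and 1969 were lower and 1541 higher under quantile normalization.

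Several stress and secondary metabolism lists were lower by smaller margins. Of 17 abscisic acid and drought genes, 8 were lower and none was higher. COR15A, a cold and dehydration protective protein gene, had 15.6 and 12.1 TPM in WT and 3.13 and 1.14 TPM in pif7-1 (-2.31), and RD29A had 19.6 and 23.4 TPM against 4.29 and 3.52 TPM (-2.20). NCED3, the rate-limiting gene of abscisic acid synthesis, had 5.19 and 5.06 TPM against 2.08 and 2.35 TPM (-0.93). The count was 5 without WT replicate 1 and 4 without WT replicate 2.

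Of 15 flavonoid and photoprotection genes, 8 were lower and none was higher, with a median of -0.81. CHS, the first enzyme of the flavonoid pathway, which overlaps another gene, had 83.2 and 81.4 TPM in WT and 40.1 and 17.1 TPM in pif7-1 (-1.61), and F3H had 33.8 and 35.2 TPM against 15.7 and 19.7 TPM (-0.93). The difference between the lights passed for none of the 15. In white light 3 genes were lower, and 2, 1, 4 and 0 without WT replicate 1, WT replicate 2, pif7-1 replicate 1 and pif7-1 replicate 2. The count of 8 in shade was 4 without either WT replicate and 3 without pif7-1 replicate 2. Of 16 aliphatic glucosinolate genes, 7 were lower, led by IPMI1 (-1.29) and CYP79F1 (38.4 and 27.2 TPM against 15.3 and 11.7 TPM, -1.21). That count was 3, 4 and 3 without WT replicate 1, WT replicate 2 or pif7-1 replicate 2.

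Chlorophyll and carotenoid synthesis genes were lower in 7 of 13 cases and higher in none. GUN5, a subunit of magnesium chelatase, had 510.8 and 496.9 TPM in WT and 252.2 and 345.9 TPM in pif7-1 (-0.77), and CHLI1, another subunit, had 349 and 357.1 TPM against 223.4 and 257.4 TPM (-0.56). The falls were below 2-fold throughout, 5 of the 7 genes overlap another gene, and the count was 4, 3 and 3 without WT replicate 1, WT replicate 2 or pif7-1 replicate 1. Of 21 antenna and Rubisco genes, 1 was lower and 1 was higher. LHCB1.4 had 3608 and 3345 TPM in WT and 5964 and 6719 TPM in pif7-1 (0.87). LHCB1.5, which lies beside it and overlaps 2 annotated genes, was listed at 16752 and 14930 TPM in WT and at 0 in both pif7-1 libraries. Near-identical LHCB1 copies can exchange reads, so neither value is certain.

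The rises had their clearest list in indole metabolism and camalexin, the tryptophan-derived defence pathway. Of 14 tested genes, 5 were higher and 3 were lower. GSTF6 (AT1G02930), a glutathione transferase gene, had 8.77 and 5.61 TPM in WT and 254.4 and 44.1 TPM in pif7-1 (3.74, SE 0.99, adjusted p = 0.016), and its neighbour GSTF7 had 11.4 and 5.03 TPM against 326.3 and 49.2 TPM (3.89, SE 1.04). CYP81F2, an indole glucosinolate hydroxylase gene, had 1.45 and 0.35 TPM against 20.8 and 5.58 TPM (2.72, SE 0.65), and MYB51, a regulator of the pathway, had 7.26 and 6.04 TPM against 21.1 and 11.2 TPM (1.11). In each of these 4 genes pif7-1 replicate 1 was the higher library. The lower members CYP79B3 (-1.15), CYP83B1 (-1.02) and TSB1 (-0.57) act earlier, in the synthesis of tryptophan and of indole glucosinolates.

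These rises depended on single libraries. Without WT replicate 2 or without pif7-1 replicate 1, none of the indole genes was higher, without WT replicate 1 3 were, and without pif7-1 replicate 2 7 were. The 3 lower members became 4 without pif7-1 replicate 1 and 1 without any other of the 4 libraries. In white light the 5 higher genes had negative log2 fold changes, of which only that of CYP81F2 passed. GSTF6 did not pass in white light, with 103.7 and 159.3 TPM in WT against 66.8 and 4.84 TPM in pif7-1 (-2.70, adjusted p = 0.124). CYP81F2 was lower there (-2.34, adjusted p = 0.0465), a call lost without WT replicate 1, WT replicate 2 or pif7-1 replicate 2 in white light. With shade GSTF6 fell by 4.01 on the log2 scale in WT, and the difference between the lights was 6.44 (adjusted p = 0.00766). In ref6-1 in shade GSTF6 had 2.09 and 1.67 TPM, with pif7-1 over ref6-1 at 5.22.

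**Figure D3:**
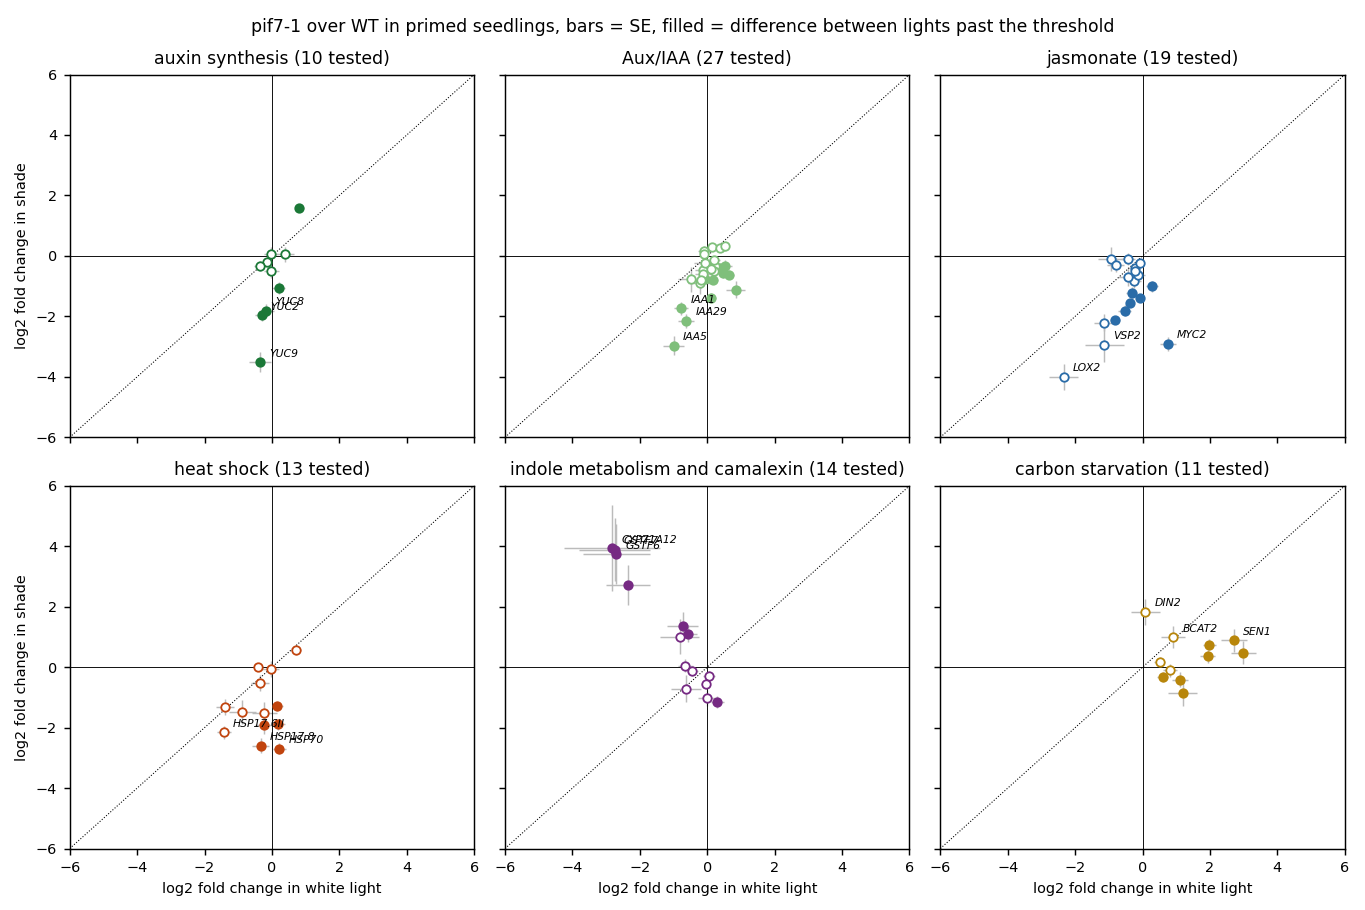
Log2 fold change of pif7-1 over WT in primed shade (vertical) against that in primed white light (horizontal) for members of 6 lists, with standard errors. Filled points passed the test of the difference between the lights, and the dotted line marks equal changes. Below the dotted line lie 7 of 10 auxin synthesis, 16 of 19 jasmonate, 11 of 13 heat shock and 9 of 11 carbon starvation genes, against 5 of 14 indole genes. Over all tested genes the median difference between the lights was -0.145, and -0.00639 under quantile normalization. Without that normalization, genes in general thus also tended to lie below the line. TAA1 and GSTF6 (3.74 in shade, -2.70 in white light) lie above it.

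Primed white light showed which differences were also called in seedlings that had no triggering shade. There 1223 genes (5.7% of those tested) were called, 902 higher (4.2%) and 321 lower (1.49%), so that higher genes outnumbered lower ones, unlike in shade. Quantile normalization gave 1085 higher and 778 lower genes. Of the 3004 genes lower in shade, 48 (1.6%) were also lower in white light, where they made up 14.95% of the lower genes, and 119 (3.96%) were higher there, or 13.2% of the higher genes. Of the 1059 genes higher in shade, 189 (17.85%) were higher in white light, which is 21.0% of the genes higher in white light. Another 41 (3.87%) were lower there, or 12.77% of the lower genes. The difference between the lights passed for 3457 genes (16.1%), of which 2740 (12.8%) were lower and 717 (3.34%) higher, against 2290 and 1642 under quantile normalization. Leaving out single libraries gave 154 to 818 genes in white light (679 without WT replicate 1, 287 without WT replicate 2, 154 without pif7-1 replicate 2) and 1409 to 4634 for the difference.

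Carbon starvation genes, which are induced when sugars run low in darkness, differed between the genotypes mainly in white light. Of 11 tested, 7 were higher in pif7-1 in white light and 2 in shade, and for 7 the change was lower in shade than in white light. ASN1, an asparagine synthetase gene and a classic dark-inducible gene, had 4.24 and 5.30 TPM in WT and 33.8 and 59.1 TPM in pif7-1 in white light (2.99, adjusted p = 0.000375), but 21.8 and 36.3 TPM against 35.02 and 44.4 TPM in shade (0.47, adjusted p = 0.419). SEN1 had 15.4 and 29.8 TPM against 118.7 and 182 TPM in white light (2.72). In WT both rose with shade (2.34 and 2.21), while in pif7-1 they changed by -0.18 and 0.38 without passing. The count of 7 in white light was 4 to 5 without any 1 library (4 without WT replicate 2 or pif7-1 replicate 2). The 7 for the difference was 4 to 8, with 4 without WT replicate 2 or pif7-1 replicate 1 in shade, or without pif7-1 replicate 2 in white light. The 2 in shade became 0 without WT replicate 1 and 1 without any other of the 4 shade libraries. ASN1 and SEN1 were named with their values known.

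**Figure D4:**
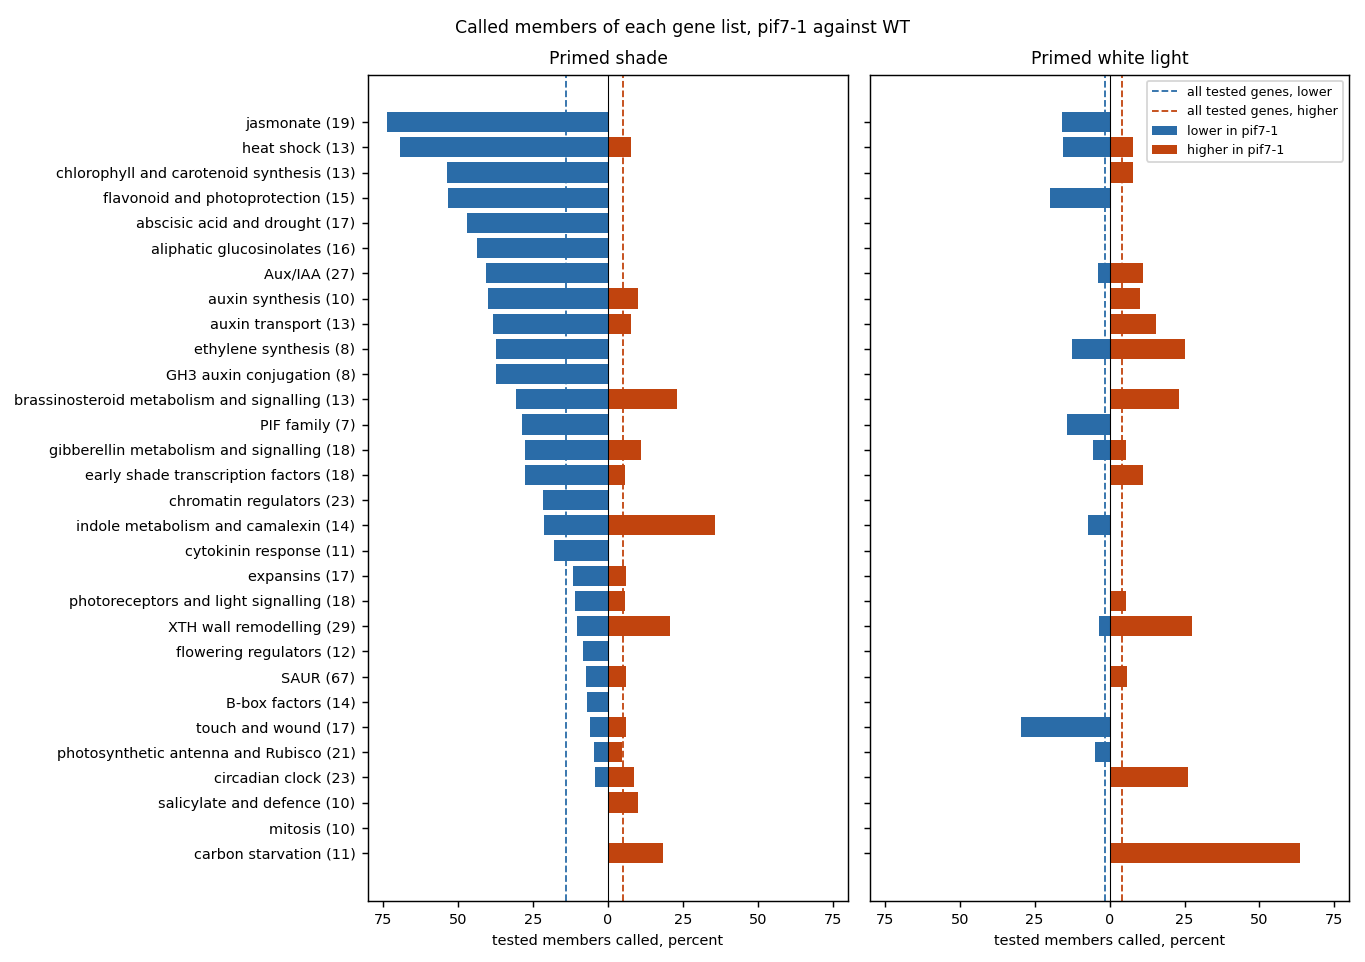
Share of tested members, in percent, that were lower (blue, to the left) or higher (red, to the right) in pif7-1 than in WT. Each gene list except the organ markers is shown in primed shade and primed white light, with the number tested beside its name. Dashed lines give the shares over all 21473 tested genes. Jasmonate (14 of 19) and heat shock (9 of 13) show the longest bars to the left in shade. Carbon starvation (7 of 11) shows the longest to the right in white light.

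In shade the lists below held called shares of 21.74% (chromatin regulators) and at most 16.67% (the rest), against 18.9% of all tested genes. Over all tested genes 14.0% were lower and 4.93% higher. Of 23 chromatin regulators 5 were lower, among them the remodelling ATPase genes BRM (19.8 and 20.4 TPM against 7.11 and 14.03 TPM, -0.94) and SYD (-0.86), but the count was 2 without WT replicate 1, 0 without WT replicate 2, 1 without pif7-1 replicate 1 and 11 without pif7-1 replicate 2. Of 23 clock genes 2 were higher (RVE4, CHE) and 1 was lower (LNK1). RVE4 kept its call without pif7-1 replicate 1 only, CHE lost it without WT replicate 2, and LNK1 kept it without pif7-1 replicate 2 only. Of 18 photoreceptor and light signalling genes, COP1 (-0.53) and SPA1 (-0.45), which form one ubiquitin ligase, were lower and FHY1 (0.73), a nuclear import partner of phytochrome A, was higher. The lower count of 2 became 11 without pif7-1 replicate 2 and 0 without any other of the 4 libraries, and FHY1 lost its call without WT replicate 2. Among 12 flowering regulators FT, the mobile flowering signal, was lower (12.8 and 7.67 TPM against 3.93 and 3.84 TPM, -1.16), a call it lost without WT replicate 1, pif7-1 replicate 1 or pif7-1 replicate 2. Of 17 touch and wound genes 1 was lower and 1 was higher (TCH3, 0.86), and TCH3 lost its call without any 1 of the 4 libraries. The lower one did so without WT replicate 1, WT replicate 2 or pif7-1 replicate 1. Of 14 B-box genes BBX17 was lower (-0.92), of 10 salicylate genes SAG101 was higher (0.86, not called without WT replicate 1), and of 10 mitosis genes none was called, CYCB1;2 coming nearest at -0.52 (adjusted p = 0.0573).

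Some of the largest changes belong to single genes. MRD1 (AT1G53480), which overlaps 2 annotated genes, had 0.30 and 0.27 TPM in WT and 46.4 and 44.9 TPM in pif7-1 (5.18, SE 0.32, adjusted p = 1.4e-07). It was higher in white light as well (5.02), with a difference between the lights of 0.17 (adjusted p = 0.843). MT1A, a metallothionein gene that overlaps another gene, had 174.6 and 383.6 TPM against 2234 and 1264 TPM (2.69, SE 0.64). AT1G26380, an annotated protein-coding gene, had 0.41 and 0.03 TPM against 24.6 and 4.86 TPM (3.35). MT1A lost its call without WT replicate 1 or pif7-1 replicate 1, and AT1G26380 without WT replicate 2 or pif7-1 replicate 1.

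Among the 12 largest falls, 9 genes overlap another annotated gene and 7 were listed at 0 in at least 1 of the 4 libraries, which gives these values little certainty. EXO70H7, an exocyst subunit gene, was listed at 15.1 and 17.7 TPM in WT and at 0 in both pif7-1 libraries. TCP9, a transcription factor gene, had 23.0 and 24.9 TPM in WT against 0 and 1.11 TPM in pif7-1, and GGPS1, a gene of isoprenoid synthesis, had 45.9 and 35.6 TPM against 0 and 0.79 TPM. CWLP had 93.1 and 52.8 TPM against 0.47 and 5.02 TPM, and AT5G42090 had 17.78 and 13.1 TPM against 0.80 and 0 TPM. AT1G74070, which overlaps no other gene, had 44.7 and 42.4 TPM against 3.51 and 2.2 TPM (-3.55, SE 0.69). Over all called genes the share that overlaps another gene was 31.4%, against 34.6% of tested genes. Among the 12 largest rises, 4 overlapped another gene and 3 held a value of 0, and pif7-1 replicate 1 was the higher library in 10.

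Markers of organs were read in the same libraries, since the samples are whole seedlings and fewer cells of a type cannot be told apart from less RNA per cell. Of 8 root markers 5 were lower in pif7-1 in shade, led by PRP3, a root hair wall protein gene (5.68 and 8.46 TPM against 2.09 and 0.81 TPM, -1.75). In shade their summed level was 67.4 to 83.8 TPM in WT libraries against 34.8 to 58.1 TPM in pif7-1 libraries. In white light it was 62.4 to 62.5 TPM against 63.5 to 65.3 TPM, and no marker was at 0. The count was 2 under quantile normalization, 1 and 0 without WT replicate 1 or 2, 3 without pif7-1 replicate 1 and 2 without pif7-1 replicate 2. The part of root tissue in the other differences was not tested. Of 4 mesophyll markers 2 were lower (GLDP1, -0.70, and CA1, -0.50), and neither was called without WT replicate 1, WT replicate 2 or pif7-1 replicate 1. None of the 5 stomatal, 3 seed storage and 2 meristem markers was called in shade.

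The 3 epidermal markers moved in white light. None was called between the genotypes in shade, where their summed level was 589.8 to 598.7 TPM in WT libraries and 361.9 to 533.8 TPM in pif7-1 libraries. In white light FDH (0.90), an epidermal fatty acid elongase gene, and ATML1 (0.81), an epidermal homeobox gene, were higher in pif7-1, and the summed level was 485.9 to 519.2 TPM against 295 to 353.5 TPM in WT. The call of ATML1 there was lost without WT replicate 2 or pif7-1 replicate 2. With shade all 3 markers rose in WT, against 14.5% of all tested genes. None of the 3 was called with shade in pif7-1, and the difference between the lights passed for FDH (-1.23) and ATML1 (-1.0). No marker was at 0, and the part of the epidermis in the other differences was not tested.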

How the data were processed

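RNA was measured by Illumina sequencing of total RNA from whole seedlings, extracted with TRIzol, per the labels. The values deposited by the authors were TPM in 1 table of 33026 genes for 24 libraries. Per the submitters' processing notes, FastQC, cutadapt, STAR, HTSeq, DESeq2 and the build TAIR10 were used. Their versions, the gene lengths behind TPM and strandedness are not stated there. Depth is therefore unknown and no counting interval can be given.

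A gene was tested if 2 or more libraries reached 1 TPM (21473 genes), and log2(TPM + 1) was fitted with limma 3.58.1 in R 4.3.3. The model had 12 group means over all 24 libraries, 12 residual degrees of freedom, a variance trend and 3.69 prior degrees of freedom. Benjamini-Hochberg adjustment covered all tested genes within a comparison, and calls were made under 0.05. Comparisons of 2 against 2 libraries share their spread with the other groups. The code was checked on simulated data.

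Named genes were PIF7, the 12 largest changes each way among called protein-coding genes with separated libraries and at least 5 TPM in the higher group, the 5 largest differences between lights each way, and up to 4 called members of each list. Others were added with their values known. All members and the 36 lists were chosen with earlier results of these data known. Gene names, overlaps and promoter windows came from RefSeq TAIR10.1, whose build name differs from that of the authors. The authors' table holds no coordinates. Replicate numbers did not pair the libraries (correlation of deviations -0.02 between the genotypes in shade). Naive libraries entered the shared spread and the choice of tested genes.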

Additional observations from a re-analysis of the deposited data

Results flagged for a closer look

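In 5 genes that met the naming rule, pif7-1 differed from WT in opposite directions in primed shade and primed white light, with all values past the limma threshold. AT3G02910, which overlaps another gene, was lower in shade and higher in white light, with a difference of -8.23 between the log2 fold changes. AT4G38250, which overlaps 2 genes, went the same way, with a difference of -8.19. PORB, a protochlorophyllide reductase gene that overlaps another gene, had 310.7 and 333.3 TPM in WT and 197.3 and 203.2 TPM in pif7-1 in shade and was higher in white light (0.64), a difference of -1.32. HSD2, a hydroxysteroid dehydrogenase gene, had 8.41 and 9.77 TPM in WT against 69.0 and 67.3 TPM in pif7-1 in shade and was lower in white light (-1.28), a difference of 4.06. CYP81F2 was likewise higher in shade and lower in white light, a difference of 5.06. The differences kept their calls without any 1 of the 8 libraries, but the separate calls were less stable. In shade PORB and CYP81F2 lost theirs without WT replicate 2 or pif7-1 replicate 1. In white light AT3G02910 and HSD2 lost theirs without WT replicate 2 or pif7-1 replicate 2. There PORB lost its call without WT replicate 1, pif7-1 replicate 1 or pif7-1 replicate 2, and CYP81F2 without WT replicate 1, WT replicate 2 or pif7-1 replicate 2. AT3G02910 and AT4G38250 were listed at 0 in some of these libraries.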

How the results depend on the processing

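The count of genes called in primed shade stayed within 1.5 times of 4063 under filters (3946 with 5 TPM, 3879 with none), pseudocounts (4012 and 4061), quantile normalization (4780), nuclear genes (4065), the 12 primed libraries (3895), omission of the naive mutant libraries (3841) and genes without overlaps (2920, of 14049 tested). The last 2 were chosen after seeing the data. With the replicate number as a block, although the numbers do not pair the libraries, it was 4038. It fell to 1 in a fit on the compared libraries alone, where 2 residual degrees of freedom remain. The same fit gave 3 genes in white light, 1282 for the difference between lights and 3 for pif7-1 against ref6-1. Quantile normalization gave 1863 genes in white light, 1085 higher and 778 lower, and moved the median difference between lights from -0.145 to -0.00639. Leaving out 1 library, with the lone sample assumed to vary like the other groups, gave 1386 to 4410 genes in shade, 154 to 818 in white light, 1409 to 4634 for the difference and 938 to 3641 against ref6-1. No named gene changed direction. The 124 named genes include 2 from each list in which none was called in shade, and those had no call to lose. Of 124 named genes, 112 lost their call in the fit on 4 libraries and 20 to 45 without single libraries. The cause was not tested.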

Other observations

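Touch and wound genes, which answer mechanical and oxidative stimuli within minutes, were called more in primed white light than in primed shade. The called share was 29.41% in white light, against 5.7% of all tested genes (1.49% lower and 4.2% higher). In shade it was 11.76%, against 18.9% of all tested genes. Of 17 tested, 5 were lower in pif7-1 in white light, all of them transcription factor genes, and none was higher. ZAT10, a zinc finger gene, had 11.3 and 12.2 TPM in WT and 4.63 and 3.02 TPM in pif7-1 (-1.42, adjusted p = 0.00772 with limma), and ZAT12 had 10.8 and 10.49 TPM against 4.31 and 2.78 TPM (-1.38). In shade ZAT10 had 2.97 and 2.8 TPM in WT and 7.16 and 3.67 TPM in pif7-1 (0.67, adjusted p = 0.11). The difference between the lights passed upward for 6 genes, among them ZAT10 (2.09) and WRKY33 (1.71), and downward for 1. Over all tested genes it passed upward for 3.34% and downward for 12.8%. With shade ZAT10 fell in WT by 1.72 on the log2 scale and changed by 0.38 in pif7-1 without passing. The 5 in white light became 1, 0 and 0 without WT replicate 1, WT replicate 2 or pif7-1 replicate 2, and 4 without pif7-1 replicate 1. The 6 for the difference became 3 without pif7-1 replicate 2 in white light. These genes were named with their values known.

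Of 23 clock genes, 6 were higher in pif7-1 in white light and none was lower, against 4.2% and 1.49% of all tested genes. The 6 were led by GI (0.63), which couples the clock to flowering, and RVE7 and LUX (both 0.59). The difference between the lights passed for 5 of the 23, all lower, among them GI (-1.0) and ZTL (-0.61), a blue light receptor of the clock. Over all tested genes it passed downward for 12.8% and upward for 3.34%. The 5 became 0 without WT replicate 2 in shade, 3 without WT replicate 1 or pif7-1 replicate 1 in shade, and 1 to 2 without any 1 of the white light libraries (1 without WT replicate 1). The 6 became 1, 0, 2 and 0 without WT replicate 1, WT replicate 2, pif7-1 replicate 1 and pif7-1 replicate 2.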
